A study of Mus musculus with 11 samples.

Results

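The enzymes described here write and erase methyl groups on histones and DNA, or remove acetyl groups from lysines. They were taken by name, as every symbol beginning with Kdm, Kmt, Hdac, Sirt, Ezh, Setd, Dnmt, Tet, Ehmt or Suv39h and a digit, without the sex-linked Kdm5c, Kdm5d and Kdm6a. The rule itself uses no measured value. It gave 68 symbols, of which 67 stood among the 29224 genes of a bulk RNA-seq table and 66 among the 31053 features of a single-cell matrix, with 65 in both. Dnmt3l-ps1 and Kdm4dl stood in the bulk table alone and Dnmt3bos in the matrix alone. A few symbols are antisense RNAs or pseudogenes that share an enzyme's name.

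All samples came from T cells of draining lymph nodes of C57BL/6 mice. The study asked how Sostdc1, a secreted protein that blocks BMP and Wnt signals and is made by a subset of follicular helper T (Tfh) cells, bears on follicular regulatory T (Tfr) cells. Of 11 samples, 3 gave the values used here. In bulk RNA-seq there was 1 library labelled as homozygous for the Sostdc1 allele, called KO in its title, and 1 labelled WT, both of Tfr cells. Tfr cells are the regulatory T (Treg) cells of the follicle, which make Foxp3 together with the receptors CXCR5 and PD1. The series describes their sort as CXCR5+ PD1+ with high GITR. The third sample was 1 droplet library of CD44+ CD4+ T cells from mice heterozygous for a Sostdc1-EGFP reporter. The labels give neither the ages of the mice, nor the construction of the alleles, nor whether animals were pooled. The remaining 8 samples (6 RNA libraries of Tfh or non-Tfh sorts, 2 ATAC libraries from Tfr sorts) were not analysed here.

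Methyl groups on histone tails act mainly by recruiting or repelling reader proteins. Methylation of lysine 4 of histone H3 marks promoters and enhancers, that of lysine 27, laid down by Polycomb repressive complex 2 around Ezh1 or Ezh2, marks repressed genes, and that of lysine 9 marks heterochromatin. DNA methylation is copied after replication by Dnmt1, set anew by Dnmt3a and Dnmt3b, and oxidised by the TET enzymes, which in Treg cells keep the conserved Foxp3 enhancer demethylated. Histone deacetylases of class I sit in nuclear corepressor complexes, those of class IIa shuttle between nucleus and cytoplasm, and sirtuins are NAD-dependent enzymes of nucleus, cytoplasm and mitochondria. In T cells, Ezh2 is known for its part in Treg stability and in Tfh differentiation.

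The library labelled KO held 27777625 counts and that labelled WT 18076300. Sostdc1 itself had 458 counts in the library labelled KO, against 4 in that labelled WT. This goes against the labels if the allele makes no Sostdc1 RNA, which the labels do not say. Whether the labels were exchanged or the allele still yields a transcript was not tested. Every direction below is therefore that of the library labelled KO. The libraries also differed in sex-linked RNA, with 34234 counts of Xist in the library labelled KO, against 39 in that labelled WT, and 6 against 3557 counts of the Y-linked Ddx3y in the same order. With 1 library per group there is no spread between replicates and no test. Levels are given as counts per 1000000 of the library total (CPM), and a difference is counted only by size, at least 2-fold on the log2(CPM + 1) scale. Intervals in parentheses are exact 95% intervals and cover counting error only. They do not measure the spread between animals, and bulk reads, which carry no molecular identifiers, may be copies of one molecule.

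In the droplet library, 13190 of 15002 barcodes had at least 500 genes and under 10% mitochondrial unique molecular identifiers (UMIs), and 11755 of them were T cells by a UMI of a Cd3 gene and fewer than 3 UMIs of a set of B cell genes. Cells were gated on the RNA of the sort's markers, where 1 UMI was enough. The Tfr gate (Foxp3, Cxcr5 and Pdcd1) held 90 cells, the Treg gate (Foxp3 without Cxcr5 and Pdcd1) 1615, the Tfh gate (both receptors, no Foxp3) 749, the cycling gate (Mki67 and Top2a) 960 and the resting gate (Ccr7 and another marker of resting cells, with none of the markers above) 1995. Cells of the cycling gate were in no other gate. Median UMIs per cell were 8546.5, 5635, 7220, 18422.5 and 6227 in that order. Of markers not used for gating, Ikzf2 had 757 and 836 CPM in the Tfr and Treg gates against 68.3 in the resting gate. Il21 had 73.3 CPM in the Tfh gate and 32.2 in the Tfr gate against 2.37 in the resting gate, and Cdk1 252 CPM in the cycling gate against 4.52 in the resting gate. The sum of 6 B cell genes was 62.0, 44.7, 51.0, 24.1 and 21.1 CPM in the Tfr, Treg, Tfh, cycling and resting gates, against 5840 CPM in B cells. Haemoglobin and platelet genes summed to 1843 CPM in the Treg gate and to at most 6.21 CPM in the other 4. In the Treg gate the haemoglobin genes Hbb-bs and Hba-a1 had 1427 and 415 CPM, and the platelet gene Pf4 had 0.486 CPM. A list of 5 myeloid genes summed to between 20.7 CPM in the Tfr gate and 158 CPM in the Tfh gate. Lyz2 alone held 3.45 and 130 CPM of these sums. The part of these markers in the results was not tested. Simulated doublets gave high scores to 33.3% of Tfr gate cells (30 of 90), against 9.92% to 13.0% in the other gates.

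Each UMI is 1 captured 3′ end, and UMI levels of different genes are set side by side here. Differences between genes in capture or in the assignment of reads were not measured, so the order is one of UMIs. In the Tfr gate the most abundant member was Kmt2e, a SET-domain protein grouped with the H3K4 enzymes, at 176 CPM (149 to 206). Kmt2a, the MLL1 methyltransferase, had 132 CPM, Hdac1, the catalytic subunit of the NuRD, Sin3 and CoREST complexes, 123 CPM, and Sirt7, a nucleolar sirtuin, 107 CPM. The leading member of each other class lay lower. Kdm5a, an H3K4 demethylase, had 83.8 CPM, and Setd4, a SET-domain methyltransferase, 70.1 CPM. Hdac7, a class IIa deacetylase, had 56.3 CPM, Kmt5a, which places the first methyl group on H4K20, 55.1 CPM, and Dnmt1 49.4 CPM. Tet3 also had 49.4 CPM, Ezh2 48.2 CPM, Ehmt2 (the H3K9 methyltransferase G9a) 42.5 CPM and Hdac6, a cytoplasmic tubulin deacetylase, 6.89 CPM. Close homologues differed in level. Dnmt3a had 33.3 CPM and Dnmt3b 2.30 CPM, Tet3 stood above Tet2 at 17.2 CPM and Tet1 at 10.3 CPM, Hdac1 above Hdac2 at 32.2 CPM, and Suv39h1 had 9.19 CPM while Suv39h2 had no UMI, with a floor of 3 UMIs at 3.45 CPM. Of the 66 members in the matrix, 38 reached 20 CPM in at least 1 of the 5 gates. Dnmt3c, Dnmt3l and Dnmt3bos had no UMI in any of the 5 gates.

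**Figure D1:**
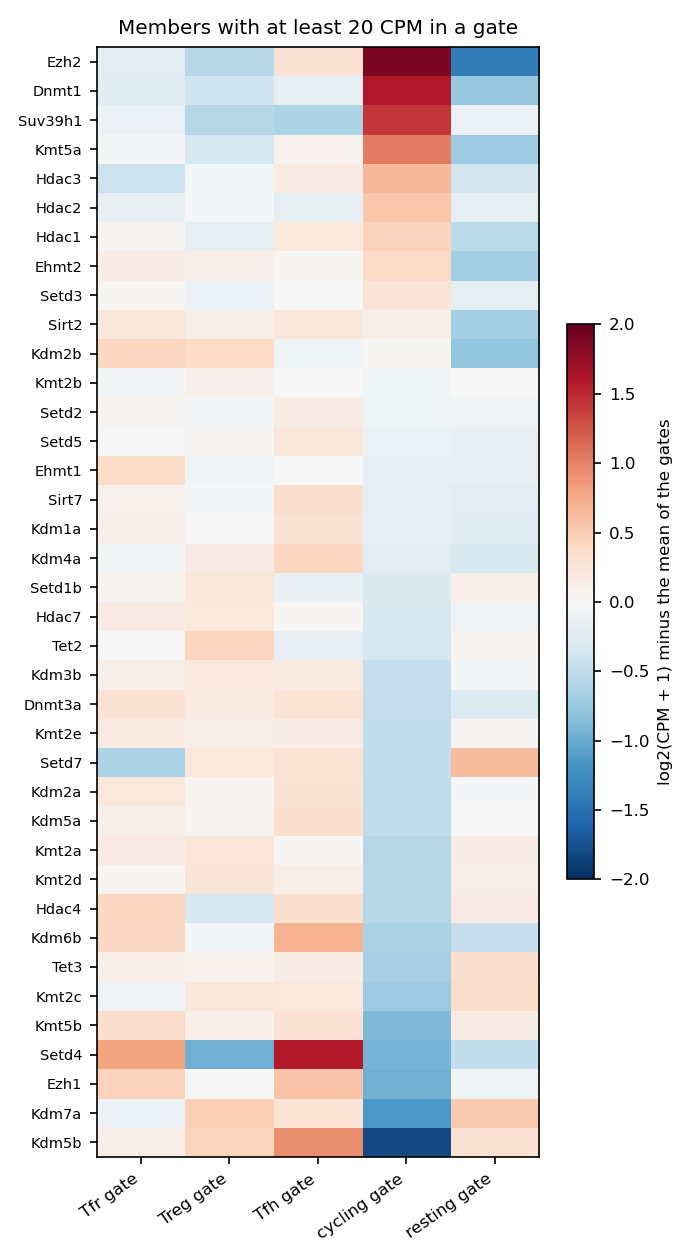
Each row is 1 of the 38 members with at least 20 CPM in a gate, each column 1 gate of the single-cell library, and colour is the log2(CPM + 1) level minus the mean of the 5 gates. Ezh2, Dnmt1, Suv39h1 and Kmt5a are darkest red in the cycling gate and Kdm5b and Kdm7a darkest blue, while Setd4 is red in the Tfh and Tfr gates.

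Of the comparisons of gates, that of dividing with resting cells held the widest range of ratios. Of 36 members that passed the filter of 20 CPM in a gate and 20 UMIs over both gates together, 6 were at least 2-fold higher in the cycling gate than in the resting gate, where 22.5% of all 5573 genes were, and 5 were at least 2-fold lower, where 5.37% of all genes were. The members' median log2 ratio was -0.20, against 0.38 over all genes. By counting intervals alone, 11 members lay above and 17 below the resting gate. This count was not made over all genes, so it cannot be read as particular to the members. The members that were higher are a maintenance DNA methyltransferase, the 3 histone methyltransferase genes Ezh2, Kmt5a and Suv39h1, and with smaller differences Ehmt2 and Hdac3.

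Ezh2, the catalytic subunit of Polycomb repressive complex 2, had 212 CPM (205 to 218) in the cycling gate and 20.8 CPM (18.4 to 23.3) in the resting gate, a ratio of 10.2 (9.03 to 11.5). A UMI of it was seen in 82.2% of cycling and 11.7% of resting cells. With every cell thinned to 3000 UMIs, which left out 10 cycling and 33 resting cells, the shares were 41.6% and 5.96% and the ratio 9.79. Its homologue Ezh1, which also forms the complex in cells that do not divide, had 14.3 CPM in the cycling gate and 26.99 CPM in the resting gate. The gates held 14.8 Ezh2 UMIs per Ezh1 UMI (13.1 to 16.7) in cycling cells, 1.20 (0.748 to 1.94) in the Tfr gate, 1.33 (1.14 to 1.55) in the Treg gate, 1.61 (1.38 to 1.89) in the Tfh gate and 0.769 (0.656 to 0.901) in the resting gate. The resting gate was thus the one in which Ezh1 UMIs outnumbered Ezh2 UMIs.

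Dnmt1 had 179.9 CPM in the cycling gate and 34.4 CPM in the resting gate, a ratio of 5.23 (4.75 to 5.77). The other DNA methyltransferases did not follow it. Dnmt3a had 19.3 CPM in the cycling gate and 22.4 CPM in the resting gate, and Dnmt3b 2.35 CPM in the cycling gate and 2.30 CPM in the resting gate. The TET dioxygenases summed to 44.1 CPM in cycling and 80.4 CPM in resting cells, with Tet3 at 28.2 and 56.8 CPM, just short of 2-fold lower (log2 ratio -0.98).

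Kmt5a had 118 CPM in the cycling gate and 33.9 CPM in the resting gate, 3.48 times as much (3.14 to 3.85). Suv39h1, which trimethylates H3K9 in pericentric heterochromatin, had 28.4 CPM in the cycling gate and 9.19 CPM in the resting gate, a ratio of 3.09 (2.54 to 3.79). Its homologue Suv39h2 had 8.39 and 1.11 CPM in these gates and was too low to be counted. Ehmt2 had 50.1 CPM in the cycling gate and 23.5 CPM in the resting gate, a ratio of 2.13 (1.88 to 2.42). Hdac3, the catalytic subunit of nuclear receptor corepressor complexes, had 42.5 CPM in the cycling gate and 20.5 CPM in the resting gate, a ratio of 2.07 (1.80 to 2.38) that was 1.63 in thinned cells. Hdac1 stood just outside, with 162 CPM in cycling and 81.0 CPM in resting cells (log2 ratio 0.99). Against all 10795 T cells outside the cycling gate, in place of the resting gate, Ehmt2 and Hdac3 were no longer past 2-fold.

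On the lower side, Kdm5b, which demethylates H3K4, had 7.34 CPM (6.20 to 8.63) in the cycling gate and 35.3 CPM (32.2 to 38.6) in the resting gate, so it was 4.81-fold lower (3.99 to 5.82). Kdm7a, a demethylase of H3K9 and H3K27, had 16.3 CPM in the cycling gate and 54.2 CPM in the resting gate and was 3.32-fold lower (2.91 to 3.79). Setd7, an H3K4 monomethyltransferase that also acts on other proteins, was 2.27-fold lower, Kmt2c (MLL3, an enhancer H3K4 monomethyltransferase) 2.16-fold lower and Kmt5b, which adds further methyl groups to H4K20, 2.08-fold lower. Kmt2c and Kmt5b were 1.68-fold and 1.77-fold lower in thinned cells, short of 2-fold. Cycling cells had more UMIs, so levels per cell can differ from levels per UMI. Kdm5b had 0.153 UMIs per cycling cell and 0.239 per resting cell. Kdm7a was nearly level per cell, with 0.341 UMIs per cycling cell and 0.366 per resting cell. Setd7 had 0.267 UMIs per cycling cell against 0.196 per resting cell, Kmt2c 0.491 against 0.343 and Kmt5b 0.446 against 0.301, so these 3 were lower as a share of the RNA and not per cell. Kmt5a and Kmt5b, which act in turn on the same lysine, differed in opposite directions as shares of the RNA.

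**Figure D2:**
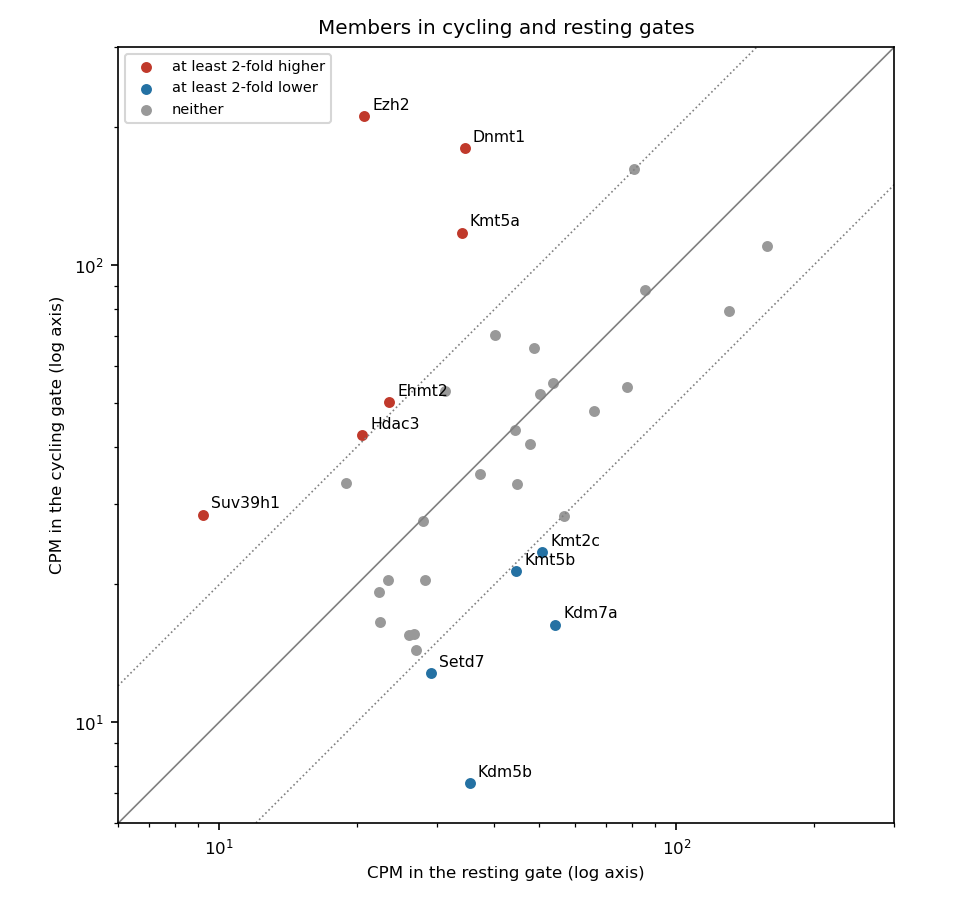
CPM in the cycling gate (vertical, log axis) against CPM in the resting gate (horizontal, log axis) for the 36 members past the filter; the solid line marks equal levels and the dotted lines a ratio of 2 either way. Ezh2 at 212 against 20.8 CPM and Kdm5b at 7.34 against 35.3 CPM lie farthest from the line on either side.

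Summed by class, class I deacetylases had 266 CPM in the cycling gate and 142 CPM in the resting gate. The H3K4 methyltransferases had 323 CPM in the cycling gate and 485 CPM in the resting gate, the lysine demethylases 293 and 407 CPM, and class IIa deacetylases 61.7 and 82.7 CPM. In that order they held 6464, 5856 and 1235 UMIs in 960 cycling cells, against 6548, 5492 and 1116 UMIs in 1995 resting cells. These classes were thus lower as shares of the RNA and not per cell. The same held for the TET sum, with 882 against 1084 UMIs, and for Ezh1, with 287 against 364. The cycling gate was also divided by Foxp3, into 419 Foxp3+ and 541 Foxp3- cells. Of 29 members past the filter, none was at least 2-fold higher or lower in Foxp3+ cycling cells, where 0.896% and 1.4% of all genes were. Ezh2 had 200.3 CPM in Foxp3+ and 221 CPM in Foxp3- cycling cells, and Dnmt1 177 and 182 CPM. The member farthest apart was Setd4, with 14.3 CPM in Foxp3+ and 25.4 CPM in Foxp3- cycling cells, a log2 ratio of -0.78, which was 2.42-fold lower in thinned cells. The myeloid list summed to 9.25 CPM in the Foxp3+ and 201 CPM in the Foxp3- cycling cells, of which Lyz2 alone held 5.41 and 170 CPM. The part of that list in the Setd4 difference was not tested.

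Partners of the enzymes also differed in both directions in the cycling gate. Over all genes 22.5% were at least 2-fold higher and 5.37% lower. Of 13 Polycomb partners past the filter, 4 were at least 2-fold higher (Eed, Suz12, Rbbp4 and Rbbp7) and 2 lower (Phf1 and Cbx7), named after their values were seen. Eed and Suz12 are the other core subunits of Polycomb repressive complex 2, and Suz12 had 129 CPM in the cycling gate against 55.8 CPM in the resting gate. Of 9 DNA methylation partners, 4 were higher and 1, Zbtb4, lower. Uhrf1, which brings Dnmt1 to newly copied DNA, had 99.8 CPM in the cycling gate against 2.59 CPM in the resting gate, and the chromatin remodeller Hells 161 against 10.7 CPM. In the other lists, 2 of 8 H3K4 complex partners, 2 of 18 deacetylase complex partners, 1 of 6 acetyltransferases and 2 of 12 other methyltransferases and demethylases were higher, and 1 deacetylase complex partner, Chd3, was lower.

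The promoters of members were read for the letters TTTCCCGC, TTTGGCGC and TTTCGCGC, forms of the site of E2F factors, which control genes of S phase. Both strands were searched from 250 bases before to 50 after the start sites of RefSeq (assembly GRCm38.p6). Of 52 members with a promoter in that table, 4 held a match (7.69%): Dnmt1, Ezh2, Kmt5c and Sirt4. Over all 27025 symbols the share was 2.12%. Of the members higher in the cycling gate 2 of 5 with a promoter held one, and of the lower members 0 of 5. The stretches below show 1 match each of the 2 members with the highest cycling ratios, and the bases before the start site of the member with the lowest, which has none. Capitals mark the match. Ezh2 lies at chr6:47595020-47595150 on the minus strand, from 120 bases before the start to base 11 after it. Dnmt1 lies at chr9:20952824-20952853 on the minus strand, from 230 to 201 bases before the start in 1 of its 3 promoters, with the match on the other strand. A second match in that promoter, after the start and on the same strand as the gene, is not shown. Kdm5b lies at chr1:134560058-134560177 on the plus strand, the 120 bases before the start.
Ezh2: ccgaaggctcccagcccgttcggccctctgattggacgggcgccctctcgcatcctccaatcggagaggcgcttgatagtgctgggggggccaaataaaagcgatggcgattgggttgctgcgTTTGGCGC
Dnmt1: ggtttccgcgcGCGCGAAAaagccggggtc
Kdm5b: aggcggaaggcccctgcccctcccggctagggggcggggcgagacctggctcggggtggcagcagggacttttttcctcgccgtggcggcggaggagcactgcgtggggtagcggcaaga
A match of letters is a description and not a site in use.

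Setd4 was highest in the follicular gates. It encodes a SET-domain methyltransferase, reported in other systems in quiescent stem cells. In the Tfh gate it had 123 CPM (114 to 132), and in the Tfr gate 70.1 CPM (53.6 to 90.0), against 28.2 CPM (25.5 to 31.2) in the resting gate and 20.01 CPM (17.4 to 22.9) in the Treg gate. Foxp3- cells with Cxcr5 alone had 55.2 CPM and those with Pdcd1 alone 38.9 CPM. Among Foxp3+ cells the levels were 34.8 CPM with Cxcr5 alone and 25.7 CPM with Pdcd1 alone. Gates with both receptors were thus highest among Foxp3+ and among Foxp3- cells. The interval of Foxp3+ cells with Pdcd1 alone overlapped that of the Treg gate and that of Foxp3+ cells with Cxcr5 alone. The cycling gate had 20.5 CPM and B cells 2.96 CPM. A UMI was seen in 48.2% of Tfh cells, 37.8% of Tfr cells, 11.3% of Treg cells, 16.6% of resting cells and 1.85% of B cells (9 of 487, at a median of 4743 UMIs). In thinned cells, without 19 Tfh, 1 Tfr, 141 Treg, 33 resting and 45 B cells of fewer UMIs, these shares were 26.7%, 15.7%, 5.56%, 8.41% and 1.13%.

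**Figure D3:**
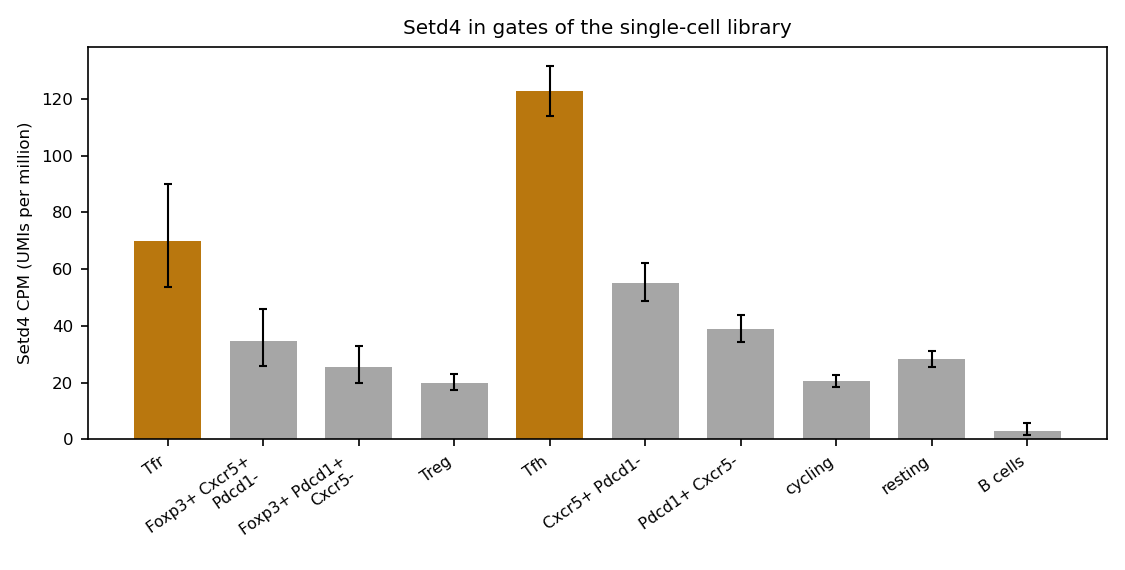
Setd4 CPM in 10 gates of the single-cell library, Foxp3+ gates at the left; bars are sums of UMIs over a gate given as CPM and whiskers exact 95% Poisson intervals, which cover counting error only. The Tfh bar (123 CPM) and the Tfr bar (70.1 CPM), in colour, stand above the gates with 1 receptor or none.

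Between the Tfr and Treg gates, Setd4 was the 1 member of 36 past 2-fold, at a ratio of 3.50 (2.59 to 4.68). Over all 5608 genes 2.18% were at least 2-fold higher in the Tfr gate and 1.21% lower, and no member was lower. The members' median log2 ratio was 0.07 and that of all genes 0.08. The next members were Hdac4, a class IIa deacetylase, with 32.2 CPM in the Tfr gate and 18.7 CPM in the Treg gate (ratio 1.72, 1.11 to 2.56), and on the other side Setd7, with 11.5 CPM in the Tfr gate and 21.4 CPM in the Treg gate (ratio 0.537, 0.254 to 1.01). The Tfr gate was small, with 10 UMIs of Setd7 and 61 of Setd4. Under 5% mitochondrial UMIs, which kept 53 of 90 Tfr cells, 1241 of 1615 Treg cells, 276 of 749 Tfh cells and 1264 of 1995 resting cells, the log2 ratio of Setd4 was 1.498 between the Tfr and Treg gates and 1.92 between the Tfh and resting gates. Without the cells of high doublet score, which kept 60 of 90 Tfr cells, its log2 ratio between the Tfr and Treg gates was 1.76, as with them. Doublets that the score did not mark can remain, so the value does not show the gate to be free of them.

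Between the Tfh and resting gates, 3 of 36 members were at least 2-fold higher, where 9.31% of all 5403 genes were, and no member was lower, where 1.5% of all genes were. The median log2 ratio was 0.32 for members and 0.35 for all genes. Setd4 had a ratio of 4.34 (3.83 to 4.93). Ezh2 had 69.7 CPM in the Tfh gate and 20.8 CPM in the resting gate, a ratio of 3.36 (2.88 to 3.92). Kdm6b, an H3K27 demethylase, had 53.2 CPM in the Tfh gate and 23.4 CPM in the resting gate, a ratio of 2.27 (1.94 to 2.66). Just outside stood Sirt2, a mainly cytoplasmic sirtuin, with 76.1 and 40.2 CPM in these gates (log2 ratio 0.90). The cycling list summed to 235 CPM in the Tfh gate and 103 CPM in the resting gate, which by its definition held no Mki67 or Top2a, and its part in the Ezh2 ratio was not tested. Partners followed in few cases: 1 of 13 Polycomb partners (Jarid2), 1 of 8 DNA methylation partners (Hells) and 2 of 11 other methyltransferases and demethylases (Nsd2 and Prmt3) were higher, and none was lower.

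Between the Treg and resting gates, 1 of 36 members was at least 2-fold higher, where 7.16% of all 5281 genes were, and none was lower, where 0.757% were. It was Kdm2b, an H3K36 demethylase that also brings a variant Polycomb complex 1 to CpG islands, with 43.5 CPM in the Treg gate and 18.9 CPM in the resting gate, a ratio of 2.30 (1.97 to 2.70). Kdm2b had 44.8 CPM in the Tfr gate, 62.3 CPM in Foxp3+ cells with Pdcd1 alone, 31.0 CPM in the Tfh gate and 33.4 CPM in the cycling gate, so the resting gate was the lowest of the 5. Ezh2 was next, with 38.4 CPM in the Treg gate and 20.8 CPM in the resting gate (log2 ratio 0.86). The Tfh, Treg and cycling comparisons share the resting gate and are not independent of each other.

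A further 3 comparisons were added after values had been seen. Between the Tfh and Treg gates, Setd4 had 123 CPM in the Tfh gate and 20.01 CPM in the Treg gate, a ratio of 6.13 (5.25 to 7.19), and was the 1 member of 37 at least 2-fold higher, where 3.44% of all 5611 genes were. No member was at least 2-fold lower in the Tfh gate, where 4.05% of all genes were. Between the Tfr and Tfh gates no member of 36 was past 2-fold in either direction, where 2.47% of genes were higher and 1.22% lower in the Tfr gate. Setd4 had a ratio of 0.571 (0.433 to 0.742) in that comparison. Within the Tfh gate, 127 cells had a Sostdc1 UMI and 622 had none. No member of 36 was past 2-fold between them, where 0.571% of genes were higher and 0.357% lower. Setd4 had 110.1 CPM in Tfh cells with a Sostdc1 UMI and 125 CPM in those without, and Ezh2 75.9 and 68.4 CPM.

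The bulk Tfr libraries compared other groups than the gates, and the members past 2-fold overlapped only in part. Ezh2, Ehmt2 and Kdm6b were past 2-fold both here and in a comparison of gates. Of the 67 members, 56 had at least 5 CPM in 1 library or both. Among them 1 was at least 2-fold higher in the library labelled KO, where 2.6% of all 10194 genes were, and 7 were at least 2-fold lower, where 9.12% of all genes were. The members' ratios lay above 1 for 21 and below 1 for 35, where those of all genes lay above 1 for 4755 and below 1 for 5439. The members' log2 ratios lay between -1.64 and 1.24, with a median of -0.10, against -0.04 over all genes. Scaling by trimmed means (TMM) moved the median of all genes by 0.15 to 0.11 and put that of the members at 0.044. It left 32 members above and 24 below 1, a count not made over all genes, so the sign of small ratios depends on the scaling. Over all genes, 265 higher and 930 lower calls became 414 and 688. All 8 members past 2-fold stayed past it, and Tet2 joined them. Fewer cells of a type and less RNA per cell cannot be told apart in these libraries, and bulk levels are not per length and are not compared between genes.

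**Figure D4:**
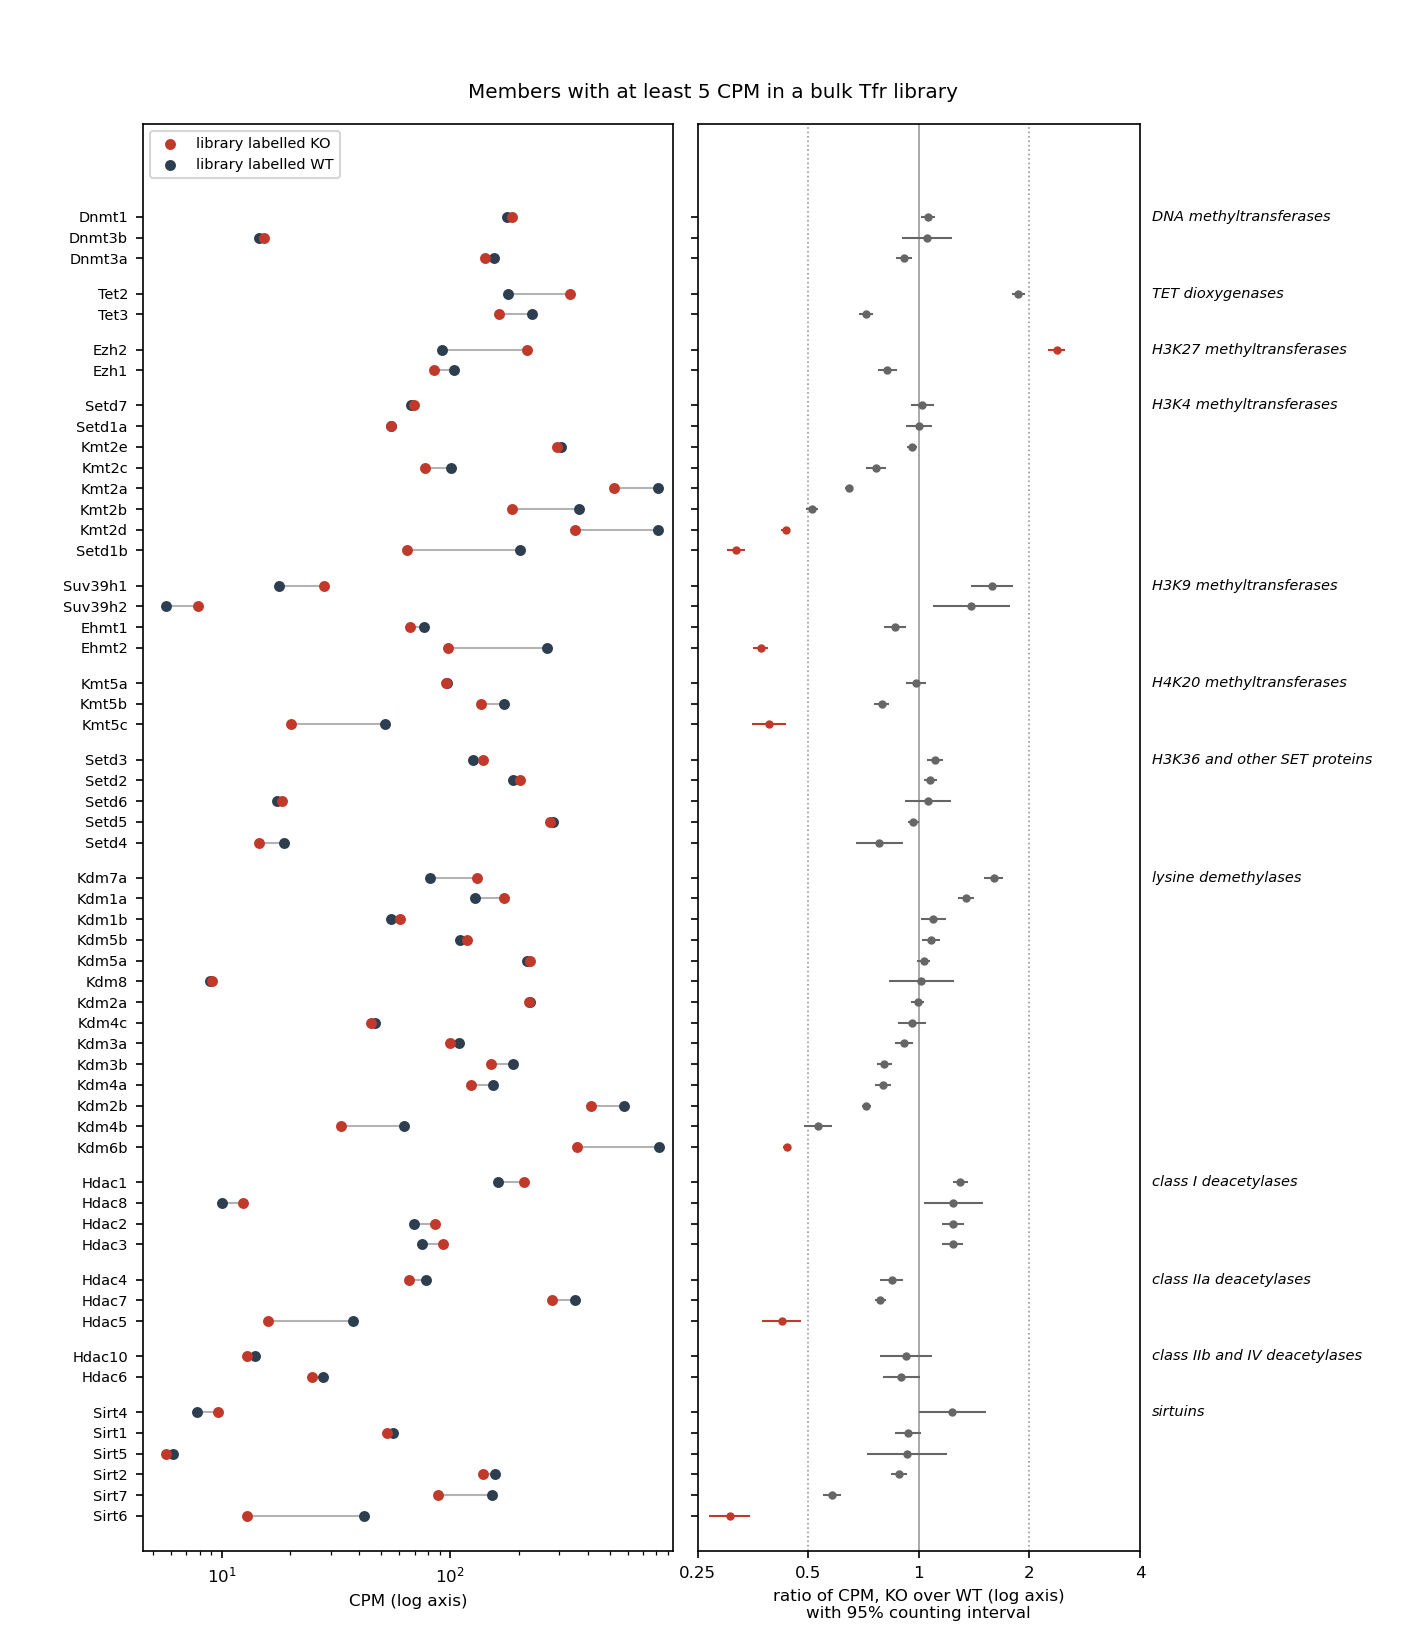
Left, CPM (log axis) of the 56 members past the filter in the libraries labelled KO (red) and WT (dark blue), grouped by role; right, the ratio of CPM, KO over WT (log axis), with its 95% counting interval, and red points past 2-fold. Ezh2 lies to the right of the dotted line at 2, and Setd1b, Kmt2d, Ehmt2, Kmt5c, Kdm6b, Hdac5 and Sirt6 lie to the left of that at 0.5.

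Ezh2 had 6059 counts or 218 CPM in the library labelled KO, against 1663 counts or 92.0 CPM in that labelled WT, a ratio of 2.37 (2.25 to 2.50). Ezh1 had 85.3 CPM in the library labelled KO, against 103.9 CPM in that labelled WT, a ratio of 0.821. None of 10 cycling genes was past 2-fold in these libraries, and their sum was 1365 CPM in the library labelled KO, against 1221 CPM in that labelled WT. The resting list had a median log2 ratio of -0.97, with 2 of 7 genes at least 2-fold lower, or 1 under TMM. Its Tcf7 lay the other way, at a ratio of 1.65. The myeloid list summed to 44.2 CPM in the library labelled KO, against 18.8 CPM in that labelled WT. The follicular list had 2 of 7 genes at least 2-fold higher, also under TMM. Il21 had 82.8 CPM in the library labelled KO, against 4.09 CPM in that labelled WT, and Cd200 had a ratio of 2.24. Tox2 of that list lay the other way, at a ratio of 0.628 (0.520 to 0.758). Cxcr5 and Bcl6 had ratios of 1.13 and 1.18. The Treg list had a median log2 ratio of 0.60 with none of 5 genes past 2-fold. Foxp3 was its only gene below 1, at a ratio of 0.791. The part of these lists in the members' ratios was not tested.

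DNA methyltransferases had ratios near 1. Dnmt1 had 188 CPM in the library labelled KO, against 177 CPM in that labelled WT (ratio 1.06, 1.01 to 1.11), Dnmt3a a ratio of 0.910, which was above 1 under TMM, and Dnmt3b 1.05. The TET genes went apart. Tet2 had 334 CPM in the library labelled KO, against 179 CPM in that labelled WT, the nearest member below 2-fold higher (log2 ratio 0.90; ratio 1.86, 1.79 to 1.94). Tet3 had 164 CPM in the library labelled KO, against 228 CPM in that labelled WT, a ratio of 0.719 (0.689 to 0.750).

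Among H3K4 methyltransferases, 2 of 8 were at least 2-fold lower, where 9.12% of all genes were. A ratio below 1 was found for 7 of the 8, or 5 under TMM, and for 5439 of all 10194 genes. Setd1a is among the 7 at a ratio of 0.9996. Setd1b, a SET1 complex enzyme, had 64.7 CPM in the library labelled KO, against 203 CPM in that labelled WT, and was 3.15-fold lower (2.97 to 3.33). Kmt2d (MLL4), the enhancer monomethyltransferase, had 354 CPM in the library labelled KO, against 815 CPM in that labelled WT, and was 2.31-fold lower (2.25 to 2.37). The ratios of the other MLL-family genes were 0.511 for Kmt2b, just short of 2-fold lower (log2 ratio -0.96), 0.645 for Kmt2a, 0.767 for Kmt2c and 0.958 for Kmt2e, the last of which was above 1 under TMM. Setd1a, the homologue of Setd1b, had 55.2 CPM in each library, and in the single-cell gates Setd1b lay between 33.2 and 47.6 CPM.

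Of the H3K9 enzymes, Ehmt2 had 98.4 CPM in the library labelled KO, against 265 CPM in that labelled WT, and was 2.69-fold lower (2.57 to 2.82). Its partner Ehmt1 had a ratio of 0.862 (0.804 to 0.925). Suv39h1 and Suv39h2 lay the other way, at ratios of 1.58 (1.39 to 1.81) and 1.38 (1.09 to 1.77). Suv39h1 is X-linked, as are Hdac8 and Hdac6, with ratios of 1.24 and 0.897, in libraries that differ in Xist, and the part of that in their ratios was not tested. Kmt5c, which trimethylates H4K20, had 20.2 CPM in the library labelled KO, against 51.7 CPM in that labelled WT, and was 2.56-fold lower (2.30 to 2.85). Kmt5a had a ratio of 0.983, which was above 1 under TMM, and Kmt5b of 0.793. The Setd2 to Setd6 genes, among them Setd2, which places the last methyl group on H3K36, and Setd3, an actin histidine methyltransferase, had ratios between 0.779 for Setd4 and 1.11 for Setd3. Setd5 had a ratio of 0.965, which was above 1 under TMM. Setd4 had 14.6 CPM in the library labelled KO, against 18.8 CPM in that labelled WT.

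Of 14 lysine demethylases past the filter, only Kdm6b was past 2-fold, with 359.9 CPM in the library labelled KO, against 820.5 CPM in that labelled WT, 2.28-fold lower (2.22 to 2.34). Kdm4b, an H3K9 demethylase, was next at a ratio of 0.531 (0.486 to 0.580). On the higher side stood Kdm7a, at 131 CPM in the library labelled KO, against 81.9 CPM in that labelled WT (ratio 1.60), and Kdm1a (LSD1), a demethylase of H3K4, at 172 and 128 CPM (ratio 1.34). Kdm2b had 415 CPM in the library labelled KO, against 577 CPM in that labelled WT (ratio 0.720), and Kdm5a a ratio of 1.03.

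The 4 class I deacetylases had ratios between 1.24 and 1.30, above 1 under both scalings, with Hdac1 at 211 CPM in the library labelled KO, against 162 CPM in that labelled WT, and Hdac2 at 86.1 and 69.4 CPM. The 3 class IIa genes past the filter lay below 1 under both scalings. Hdac5 had 15.9 CPM in the library labelled KO, against 37.5 CPM in that labelled WT, and was 2.36-fold lower (2.09 to 2.67), Hdac7 had a ratio of 0.786 and Hdac4 of 0.843. Among sirtuins, Sirt6, a chromatin deacetylase of DNA repair and metabolism, had 12.9 CPM in the library labelled KO, against 42.0 CPM in that labelled WT, and was 3.27-fold lower (2.88 to 3.72). Sirt7 had a ratio of 0.580 (0.549 to 0.613) and Sirt2 of 0.884.

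The members that did not reach 5 CPM in either bulk library were Dnmt3c, Dnmt3l, Dnmt3aos, Dnmt3l-ps1, Hdac9, Hdac11, Kdm4d, Kdm4dl, Kdm6bos, Sirt3 and Tet1. None of the 8 members past 2-fold was found to overlap another measured gene in RefSeq, but Kdm6bos, named for the strand opposite Kdm6b, had no position there and was not checked. Others do, such as Dnmt3a with Dnmt3aos and Hdac7 with Slc48a1, and since the strand setting is not given their reads cannot be told apart. Across genes, which are not independent, the log2 ratio had a Spearman rho of 0.09 with gene span over the 56 members and 0.06 over 9964 genes.

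Of the partner lists, only the Polycomb list held several genes past 2-fold in the bulk libraries. Of its 19 genes 6 were lower and none higher, where 9.12% and 2.6% of all genes were, with a median log2 ratio of -0.10, or 0.053 under TMM, which left 6 lower. Epop, a modulator of Polycomb repressive complex 2, had 12.1 CPM in the library labelled KO, against 48.9 CPM in that labelled WT, and was 4.06-fold lower, and Cbx2, a chromodomain subunit of Polycomb complex 1, was 2.94-fold lower. The other lower genes, named after their values were seen, included Phf1, Cbx7 and Cbx8, while Eed, the partner of Ezh2, had a ratio of 1.02. Of 12 H3K4 complex partners, 1 (Cxxc1, which brings SET1 complexes to CpG islands, a ratio of 0.492) was lower, and under TMM it was not. Men1, next in that list, had a ratio of 0.517, and Mbd3, of the deacetylase complex list, 0.501. None of 10 DNA methylation partners, 12 acetyltransferases or 22 other methyltransferases and demethylases was past 2-fold in either direction. The ratios farthest from 1 were 0.503 for Zbtb4 and 0.688 for Mbd4 in the first of these lists, 1.69 for Hat1 and 0.618 for Kat2b in the next, and 1.83 for Prmt6 and 0.580 for Dot1l in the last.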

How the data were processed

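The deposited bulk table gives whole-number counts per gene in 1 library per group. The column taken for the library labelled WT carries a number that its title lacks, and no other WT Tfr RNA sample exists among the labels. The deposited single-cell matrix gives UMI counts per gene and barcode, made with version 2 of the 10x 3′ kit per the labels' protocols. Bulk RNA was prepared with the NEBNext Ultra kit, per the labels' protocols. The submitters' processing notes name TopHat, Cufflinks, Bowtie2, Seurat 2 and Cell Ranger 2.1.0 and the builds mm9 and mm10 without roles, while the matrix was written by software version 3.1.0, per the file headers. The bulk table came with counter, annotation and strand setting not given in the sources used here.

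From the counts, CPM, log2(CPM + 1) ratios, exact conditional binomial intervals for ratios, exact Poisson intervals for sums and Clopper-Pearson intervals for shares were computed (Python 3.11.15, numpy 2.4.6, scipy 1.17.1, pandas 2.3.3), and TMM factors with edgeR 4.0.16 in R 4.3.3, used for scaling only. Genes entered with at least 5 CPM in a bulk library, or 20 CPM in a gate and 20 UMIs over both gates together. Each cell was scored for doublets among its nearest neighbours in a set with 2 simulated doublets for every cell (scikit-learn 1.9.0), in place of the scrublet tool first planned. The scores were used only in an alternative. Steps were tested on simulated data. Members, gene lists and gates were chosen with earlier results of these data known. Members past 2-fold, the leading member of each class, close homologues and up to 2 partners per list were named. Some genes of the gates and lists are not reported here.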

Additional observations from a re-analysis of the deposited data

How the results depend on the processing

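All 8 bulk members past 2-fold stayed past it under 7 alternatives. Those that change only the filter or leave out X-linked members cannot move a gene's ratio, so staying past 2-fold there adds nothing. TMM scaling gave 2 members at least 2-fold higher and a members' median log2 ratio of 0.044, the reverse sign. In single cells, Setd4 in the Tfr against Treg gates, Setd4, Ezh2 and Kdm6b in the Tfh against resting gates and Kdm2b in the Treg against resting gates stayed past 2-fold under 12 alternatives each, where log2 ratios lay between 1.02 and 2.24. In the cycling against resting gates, Ezh2, Dnmt1, Kmt5a, Suv39h1, Kdm5b and Kdm7a did so under 13. Ehmt2 did so under 11, Kmt5b and Setd7 under 9, and Hdac3 and Kmt2c under 8. Each gene was judged here by its log2 ratio alone, even under a filter that left it out. A filter of 50 CPM left out Kdm2b in the Treg against resting gates. In the cycling against resting gates it left out Suv39h1, Hdac3, Kdm5b, Kmt5b and Setd7. Counts moved as follows. Thinning gave 2 higher (Hdac4 and Setd4) and 2 lower (Hdac3 and Setd7) members in the Tfr against Treg gates, 5 higher in the Tfh against resting gates, 3 lower in the cycling against resting gates and 1 lower (Setd4) in Foxp3+ against Foxp3- cycling cells. In the Tfr against Treg gates, a filter of 10 CPM gave 2 higher (Tet1 joined), and leaving out high doublet scores (Tet2) or averaging CPM over cells (Setd7) gave 1 lower. In the cycling against resting gates, 2 members were lower without cells above 30000 UMIs, with a filter of 50 CPM, with a pseudocount of 5 CPM and as means over cells. In the Treg against resting gates, 2 were higher under 5% mitochondrial UMIs and without high doublet scores (Ezh2 joined both times), and 0 with a filter of 50 CPM, since Kdm2b lies under it. The cause of the other shifts was not tested. No paired analysis was possible because each group compared holds 1 library, and the groups that share replicate numbers were not analysed here. Depth limits the Tfr gate most, where the 90 cells held 870742 UMIs.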

Other observations

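The level of Setd4 in the bulk Tfr libraries, 14.6 CPM in the library labelled KO, against 18.8 CPM in that labelled WT, came from reads along the transcript, and the 70.1 CPM of the Tfr gate from 3′ ends, so these levels were on different scales and were not compared. Tet1 had 9 UMIs in the Tfr gate and 35 in the Treg gate, a ratio of 3.04 (1.29 to 6.45), under the filter of 20 CPM.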
